A study of Mus musculus with 53 samples.

Results

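Tbx3 binds DNA through its T-box domain, and the sites described here are the Tbx3 binding sites that lay at the promoters of protein-coding genes in mouse embryonic stem cells. A site was taken as a promoter site where its interval came within 1 kb of any coding gene's start on mm9, with GENCODE vM1 as the gene annotation. By this rule 592 of 3078 sites (19.2%) were promoter sites. They lay at the starts of 656 of 22367 annotated coding genes (2.93%), which carry 653 distinct symbols. Of the other sites, 1019 (33.1%) lay between 1 and 20 kb from the nearest coding gene start and 1467 (47.7%) lay farther away.

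The sites came from 1 chromatin precipitation in R1 embryonic stem cells that were labelled as null for Tbx3 (N/N) and expressed the biotin ligase BirA together with Tbx3 carrying a Flag and a biotin tag, so that streptavidin beads could capture the tagged protein. The site list therefore describes an introduced Tbx3 protein in cells labelled null for the normal gene, and the BirA-only control precipitation was not analysed here. Expression was read from 5 bulk RNA libraries of R1 cells, which were Tbx3 +/+, Tbx3 +/N, Tbx3 N/N, and wild-type cells with a short hairpin RNA against luciferase (shLuc) or against Tbx3 (shTbx3), and from 45 single wild-type R1 cells sorted as positive for the surface antigen SSEA1 and negative for the DNA dye DAPI, plus 1 pool of such cells. All of these cultures were kept in serum with the cytokine LIF and without feeder cells. There was 1 library per group, so no difference below has a replicate check and no p-value is given.

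Tbx3 belongs to the T-box family, whose members recognise short DNA sequences built around GGTGTGA. In embryonic stem cells Tbx3 is one of the regulators associated with the naive state of pluripotency, the capacity to form all tissues of the embryo, together with factors such as Nanog, Esrrb and the Kruppel-like factors. A promoter is the stretch around a gene's start where the transcription machinery assembles. Many mammalian promoters, above all those of widely expressed genes, lie in CpG islands, which are rich in G, C and the dinucleotide CG.

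Sequences of 11 promoter sites are printed to show the letters that the counts below refer to. Each is a stretch of the mm9 plus strand, and capitals mark matches on either strand to GGTGTGA (T-box core), AGGTGT (a shorter T-box form, added after the data had been seen), ATTTGCAT (the octamer read by Oct4 and its relatives), CCATTGTT (a Sox sequence), TCAAGGTCA (an Esrrb sequence), GGGTGTGG (a Kruppel-like sequence) or GCATGCGC (part of the Nrf1 sequence). The matches are descriptions of letters and not measured contacts. The first 5 hold the T-box core, and they belong to Lrig1 (chr6:94650352-94650458), Stk38 (chr17:29145396-29145502), Upp1 (chr11:9017152-9017258), Dll3 (chr7:29087368-29087474) and Ntn1 (chr11:68214532-68214638).
Lrig1: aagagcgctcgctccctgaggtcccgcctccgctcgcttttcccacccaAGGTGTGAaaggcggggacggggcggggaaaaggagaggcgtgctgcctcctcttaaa
Stk38: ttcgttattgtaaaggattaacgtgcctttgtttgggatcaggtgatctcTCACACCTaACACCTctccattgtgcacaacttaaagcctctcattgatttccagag
Upp1: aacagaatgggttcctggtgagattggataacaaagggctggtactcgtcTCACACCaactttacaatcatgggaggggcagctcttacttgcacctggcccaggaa
Dll3: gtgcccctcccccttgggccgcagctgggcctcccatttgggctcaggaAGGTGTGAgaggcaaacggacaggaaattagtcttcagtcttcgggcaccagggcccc
Ntn1: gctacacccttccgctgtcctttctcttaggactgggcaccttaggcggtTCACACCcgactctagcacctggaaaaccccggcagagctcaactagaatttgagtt

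The next 4 come from the site with the highest score, Mycn (chr12:12950493-12950656), and from sites with the octamer or the shorter T-box form at Phc1 (chr6:122291161-122291276), Tdgf1 (chr9:110850446-110850553) and Prdm14 (chr1:13118094-13118199).
Mycn: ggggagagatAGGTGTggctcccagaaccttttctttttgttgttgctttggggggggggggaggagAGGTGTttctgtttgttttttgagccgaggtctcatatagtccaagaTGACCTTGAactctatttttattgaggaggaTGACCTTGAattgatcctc
Phc1: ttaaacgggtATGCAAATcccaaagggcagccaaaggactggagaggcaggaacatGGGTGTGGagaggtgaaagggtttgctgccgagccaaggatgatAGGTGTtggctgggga
Tdgf1: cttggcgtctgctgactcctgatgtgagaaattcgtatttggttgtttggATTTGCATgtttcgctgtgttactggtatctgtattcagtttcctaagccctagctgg
Prdm14: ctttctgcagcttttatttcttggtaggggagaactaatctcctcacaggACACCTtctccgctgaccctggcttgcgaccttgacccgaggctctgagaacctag

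The last pair shows other letters, a Sox match at T (chr17:8626923-8627030), a site without a T-box match, and overlapping Nrf1 matches on both strands beside 1 short T-box form at 4930427A07Rik (chr12:114394326-114394433).
T: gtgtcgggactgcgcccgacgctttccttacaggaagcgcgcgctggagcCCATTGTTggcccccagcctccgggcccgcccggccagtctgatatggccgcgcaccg
4930427A07Rik: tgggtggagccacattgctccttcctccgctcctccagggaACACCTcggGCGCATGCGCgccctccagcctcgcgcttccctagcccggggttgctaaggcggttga

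Most promoter sites sat directly on the gene start. The site interval covered the nearest coding start in 410 of 592 cases (69.3%), lay upstream of it in 117 (19.8%) and lay downstream in 65 (11.0%). The centre of the site was within 250 bp of that start in 378 cases (63.9%), with 242 on the upstream side and 136 on the downstream side. The median centre lay 77.0 bp upstream, and the extremes were 1651 bp upstream at Nodal and 1239 bp downstream. By annotation 177 centres (29.9%) fell in an exon of any gene, coding or non-coding. Another 81 (13.7%) fell in an intron of a coding gene, and 334 (56.4%) in neither. The members just inside the distance limit were Polr2h, X99384, Qrfpr, Actn4 and Rad23b, whose sites ended 988 to 998 bp from the start. Those just outside, at 1006 to 1054 bp, were sites of Myst2, Phip and Uhrf2 and further sites of Rif1 and Oxsr1, which also had a promoter site.

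**Figure D1:**
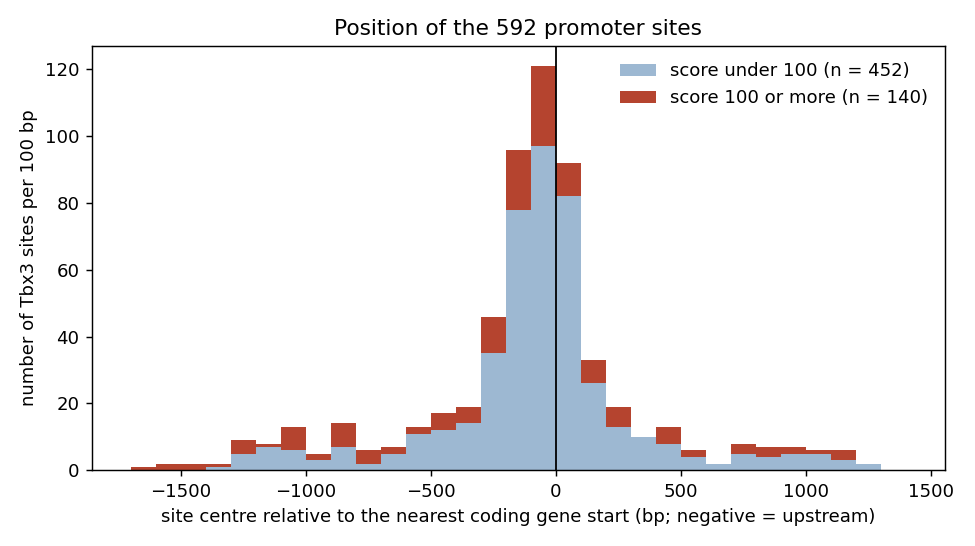
Number of promoter sites (vertical axis, per 100 bp) by the distance of the site centre from the nearest coding gene start (horizontal axis, bp, negative values upstream), stacked by deposited score. The tallest bars stand just upstream of the start, 378 of 592 centres lie within 250 bp of it, and 140 sites score 100 or more.

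Paired promoters, where coding genes on opposite strands start close together, were frequent among the genes with a site. A coding start on the other strand lay within 1 kb for 142 of 656 starts with a site (21.6%), 1755 of 10587 starts without a site whose genes were listed in the bulk RNA table (16.6%) and 2426 of all 22367 coding starts (10.8%). Because a site counted for every start within 1 kb, a paired start could gain one through its partner. The part of this rule in the higher share was not tested. A single site was within reach of starts on both strands in 71 cases (12%). The median score of those 71 sites was 72.9, beside 69.3 for the 521 sites with starts on 1 strand. A site over the start of Rab6, a small GTPase of Golgi transport, that was also in reach of Mrpl48, a mitochondrial ribosomal protein, had a score of 358. At the other extreme 13 genes held 2 promoter sites each, among them Phc1, Tdgf1, Trim28 and Gadd45g.

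The sites were unevenly placed on the chromosomes. Chromosome 10 had the most relative to its genes, 38 sites for 1045 coding genes (3.64 per 100), and X the fewest of the chromosomes with any, 9 sites for 932 genes (0.966 per 100). The Y chromosome had 0 sites for 17 genes.

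Promoter sites had lower scores and were wider than the other sites of the list. The score is the authors' deposited value for each site, with a minimum near 50 and no unit given in the sources used here. Its median was 69.7 at promoters (middle 50% of sites 57.8 to 96.2), 79.2 at 1 to 20 kb and 78.8 beyond 20 kb. Scores of 100 or more were held by 140 promoter sites (23.6%), 359 sites at 1 to 20 kb (35.2%) and 521 sites beyond 20 kb (35.5%). The width ran the other way, with medians of 568, 520 and 496 bp in the same order. All of these distributions overlapped widely. Within the promoter sites, those upstream of the start had a median score of 76.0 and reached 100 in 38 of 117 cases (32.5%), whereas those over the start had a median of 69.1 and reached 100 in 83 of 410 cases (20.2%). The median width was 588 bp over the start, 489 bp upstream and 523 bp downstream. Under the rule used, a wider interval reaches or covers a start more easily. The part of this in the larger width was not tested.

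**Figure D2:**
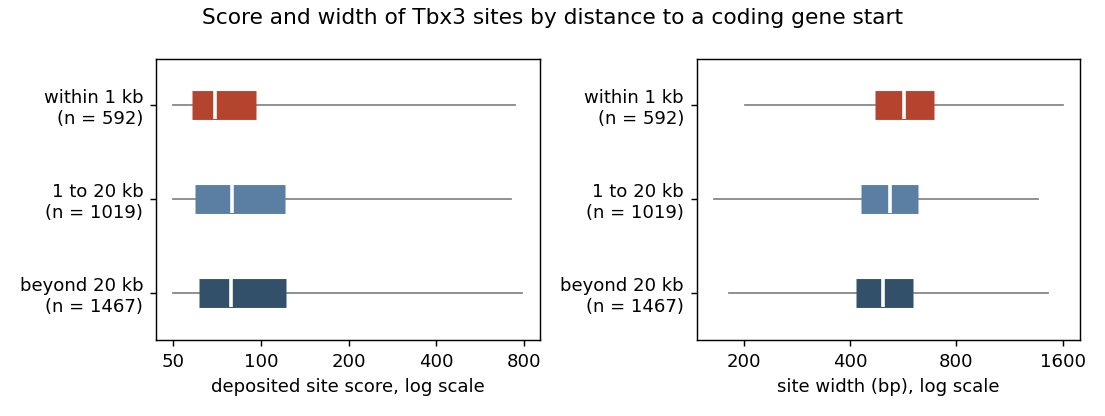
Deposited score (left) and width in bp (right), both on log axes, of the Tbx3 sites in 3 distance classes. White ticks are medians, boxes span the middle 50% of sites and lines the whole range; promoter sites have the lowest median score (69.7) and the largest median width (568 bp).

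The promoter site with the highest score stood upstream of Mycn, which encodes N-Myc, a Myc-family factor that drives growth and proliferation of embryonic cells. Its score of 746 was the second highest among all 3078 sites. The site was also the widest at a promoter, 1602 bp on chromosome 12 from 12949140 to 12950741, with its centre 1220 bp upstream of the start. It held 1 T-box core, 3 matches to the shorter T-box form and 3 Esrrb matches, and 2 of each of the last sets are visible in the sequence above.

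Lrig1, a membrane protein that restrains growth factor receptors, followed at a score of 483, with the site centre 148 bp upstream of its start. Shf, an adaptor protein, scored 467 and Trp53bp1, a DNA damage response protein, scored 463. Tdgf1, the Nodal co-receptor also called Cripto, scored 418 with a site 1365 bp wide. The next were the ubiquitin ligase gene Rnf10 (412), Bend3 (406), Lsm14b (393), the kinase gene Stk38 (378) and the gene model Gm10203 (363). Over its whole interval the Stk38 site held 1 T-box core and 2 matches to the shorter form, the Bend3 site 2 of the shorter form, and the Rnf10 site none of either.

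The next widest sites belonged to Nodal (1445 bp), Tdgf1, Gmfg (1346 bp) and Lima1 (1346 bp). Nodal, the secreted ligand of the pathway in which Tdgf1 acts as co-receptor, had a score of 167 and Lima1, an actin-binding protein, had 258. Gmfg had a score of 56.9, so width and score did not always go together.

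The promoter sites had the base composition of gene starts and differed in this from the other Tbx3 sites. In windows of 300 bp around the site centre the median GC content was 63.3% at promoters, 49.3% at 1 to 20 kb and 48.7% beyond 20 kb. The CpG observed to expected ratio, the number of CG dinucleotides relative to that given by the C and G content, had medians of 0.780, 0.213 and 0.195. Windows around the starts of bulk-listed coding genes without a site were at 64% GC and a ratio of 0.817. A ratio of 0.6 or more, the usual mark of a CpG island, was found in 429 promoter site windows (72.5%) and 8149 of those 10587 start windows (77.0%). How much signal such promoters gave without tagged Tbx3 was not measured here, so its part in the promoter sites was not tested.

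T-box letters were more frequent in promoter sites than at other gene starts and less frequent than in the distal sites. GGTGTGA occurred on either strand in 40 of 592 promoter windows of 300 bp (6.76%), in 2.85% of windows at bulk-listed starts without a site, in 3.53% at all coding starts and in 10.8% of windows beyond 20 kb. The shorter form AGGTGT, which overlaps the core where an A stands before it, gave 21.3%, 10.1%, 12.1% and 33.1% in the same order. Most promoter windows thus held neither form. The composition of the sites differed between these classes as given above, and its part in the shares was not tested.

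The T-box letters also lay close to the site centre. At promoter sites GGTGTGA had 4.56 matches per 100 windows within 100 bp of the centre, 2.87 at 100 to 200 bp and 1.86 at 200 to 300 bp. Beyond 20 kb the same counts were 9.82, 4.23 and 2.32. Around bulk-listed starts without a site they were 1.98, 2.15 and 2.37, with no excess at the centre. AGGTGT gave 17.6, 12.7 and 9.80 at promoter sites and 6.90, 8.25 and 9.06 at those starts.

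Sequences read by pluripotency factors followed the same order. The octamer ATTTGCAT was in 3.04% of promoter windows, 0.963% of start windows without a site and 7.84% of windows beyond 20 kb. The Sox sequence CCATTGTT gave 1.01%, 0.406% and 4.09%, and the Esrrb sequence TCAAGGTCA gave 1.01%, 0.283% and 3.34%. Both promoter shares of 1.01% were 6 of 592 windows. The Kruppel-like sequence GGGTGTGG, whose letters overlap the T-box form GGTGTG, was at 6.25%, 3.57% and 6.75%. These are small shares in all 3 classes. At all coding starts the octamer, Sox, Esrrb and Kruppel-like shares were 1.35%, 0.765%, 0.295% and 3.48%.

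Sequences of general promoters were as frequent at promoter sites as at other starts, with exceptions in both directions. The GC box GGGCGG, read by Sp factors, was in 66.7% of promoter windows and 66.7% of start windows without a site, beside 13% beyond 20 kb. The CCAAT sequence (GATTGGC) gave 10.3%, 9.31% and 3.0%, the E-box CACGTG 11.1%, 9.64% and 3.34%, and the CRE TGACGTCA 3.38%, 3.24% and 0.477%. The Nrf1 part GCATGCGC was higher at promoter sites, 8.78% against 5.08% of starts without a site, and the Ets sequence CCGGAAG was lower, 13.7% against 18.7%. The YY1 sequence AAGATGGCG was at 3.21% and 4.0%, TATAAA at 5.24% and 5.03%, the AP-1 sequence TGAGTCA at 3.04% and 3.0%, and the Stat sequence TTCCGGGAA at 0.507% and 0.737%.

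**Figure D3:**
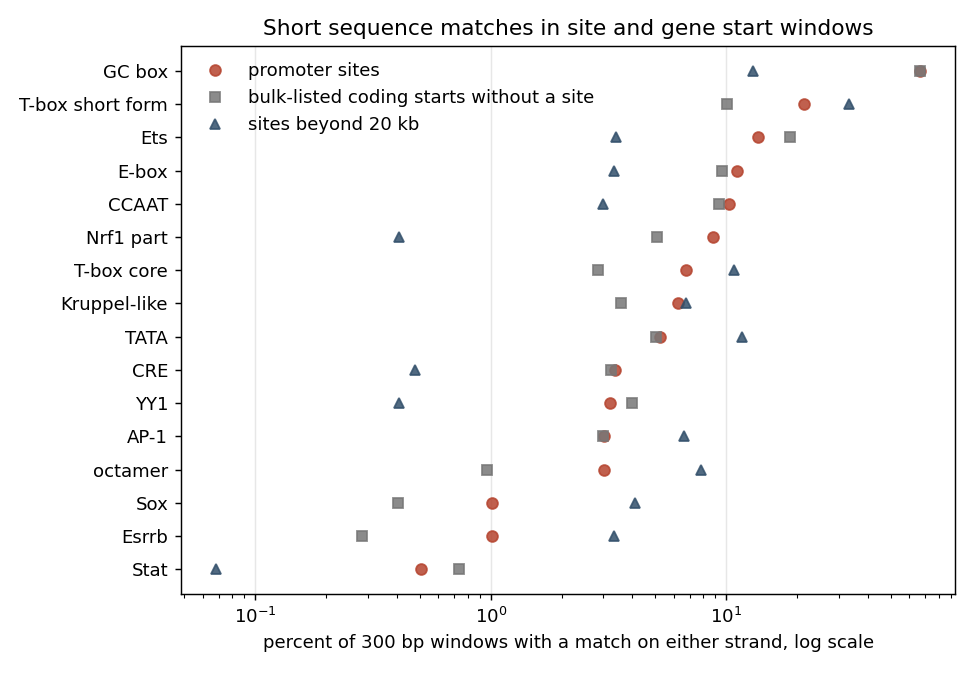
Percent of 300 bp windows with a match on either strand (log axis) for 15 sequences and the shorter T-box form, in promoter sites (circles), around bulk-listed coding starts without a site (squares) and in sites beyond 20 kb (triangles). The T-box core, octamer, Sox and Esrrb circles lie between square and triangle, whereas the GC box circle and square coincide at 66.7%.

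The share of promoter sites with T-box letters had no steady order by score. In 4 groups of 148 sites from the lowest to the highest scores, GGTGTGA was present in 6.76%, 7.43%, 5.41% and 7.43% of windows, and AGGTGT in 20.9%, 17.6%, 24.3% and 22.3%. The GC box was present in 78.4%, 68.2%, 66.2% and 54.1%, fewer at the highest scores. The median distance of the centre from the gene start was 152, 120, 156 and 268 bp, so the highest scoring group lay farthest out and also had the lowest median CpG ratio, 0.685 against 0.791 to 0.828 in the other 3. The median level of the genes in the +/+ library differed little between the groups, at 14.7, 13.9, 16.5 and 16.1 FPKM. FPKM is a fragment count scaled to transcript length and to the total of the library.

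Several core pluripotency genes had a promoter site, and so did members of the naive, T-box, Myc and DNA methylation lists. Over all coding genes 2.94% had such a site, and over those that the bulk RNA table listed, 5.21% did. Of 11 core pluripotency genes 5 had one (45.5%), and of 24 naive pluripotency genes 4 had one (16.7%). Of 16 formative and primed genes, 17 endoderm genes, 10 neuroectoderm genes and 22 germline and 2-cell stage genes, 0 had one, and of 17 primitive streak and mesoderm genes 1 had one (5.88%). These lists were chosen with earlier results of these data known, and with such small lists 1 gene shifts a share by several percentage points.

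The 5 core members were Tdgf1, Nanog, Pou5f1, Fgf4 and Trim28. Nanog, a homeodomain factor of pluripotency, had a site over its start with a score of 110, centred 64 bp upstream on chromosome 6. Pou5f1, which encodes Oct4, had a site at 88.1 whose centre was 1024 bp upstream. Fgf4, the growth factor secreted by stem cells, had a site at 74.1, and Trim28, a corepressor that silences retroelements, had sites at 64.6 and 54.0. No match to GGTGTGA or ATTTGCAT was found in the Nanog, Pou5f1 or Fgf4 sites, which says only that these letters were not in those intervals.

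The 4 naive members were Prdm14, Fbxo15, Dppa5a and Tbx3 itself. Prdm14, a factor that holds down DNA methylation and differentiation, had a score of 225 and a site 1011 bp upstream of the start. Fbxo15, an F-box gene expressed in stem cells, had 174, and Dppa5a, an RNA-binding protein of early embryos, had 161. The Tbx3 site had 69.8 and was centred in an exon, 239 bp downstream of the start, in the gene whose product the tagged transgene also encodes. The T-box family gave 3 of 17 members (17.6%). They were Tbx3, Mga (87.9), a factor with both a T-box and a Myc-type domain, and T (77.7), the Brachyury gene that marks the primitive streak. Mga also counted with Mycn as 2 of 11 Myc family genes (18.2%).

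Signalling lists ranged from near the 2.94% of all coding genes to above it. Most of their genes were in the bulk RNA table, where 5.21% of coding genes had a site. Over those listed genes the Nodal, Wnt and FGF lists stood at 10.3%, 7.41% and 3.85%, the last below that background. In the Nodal, activin and BMP list 3 of 29 genes had one (10.3%), namely Tdgf1, Nodal and the inhibitory Smad6 (118). In the Wnt list 2 of 32 did (6.25%), the receptor Fzd2 at 260 and Porcn, which loads a lipid onto Wnt ligands, at 133. In the FGF and MAPK list Fgf4 was the single gene of 26 (3.85%).

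Chromatin genes were above the share of all coding genes and above the 5.21% of bulk-listed coding genes. Over bulk-listed genes the polycomb and trithorax share was 10.0%, beside 9.59% for the heat shock chaperones given below. Among polycomb and trithorax genes 4 of 43 had a site (9.30%). These were Phc1, a polycomb repressive complex 1 subunit (305, with a second site at 183 that holds the sequence printed above), Jarid2, a partner of polycomb repressive complex 2 (251), Suz12, one of its core subunits (53), and the histone-binding Rbbp4 (52.7). Chromatin remodellers and histone acetylation genes gave 6 of 42 (14.3%), with Smarcc1 at 107, Sin3b at 94.6, Kdm1a at 73.7 and Mbd3 at 63.5 the highest. DNA methylation genes gave 3 of 15 (20%), led by the maintenance methyltransferase gene Dnmt1 at 138. The others were Trim28, also counted in the core pluripotency list, and Mbd3, also counted among the remodellers.

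Housekeeping lists lay on both sides of the 5.21% of bulk-listed coding genes. Vesicle transport genes had 13 of 164 listed members with a site (7.93%), led by Rab10 at 165 and Rab3d at 94.2. Heat shock chaperones had 7 of 73 (9.59%), cell cycle and DNA replication genes 5 of 60 (8.33%) and mitochondrial ribosomal proteins 5 of 75 (6.67%). Splicing factors and hnRNPs had 5 of 77 (6.49%) and proteasome and ubiquitin genes 9 of 145 (6.21%). Below 5.21% were the C2H2 and KRAB zinc finger list, 15 of 308 (4.87%), cytosolic ribosomal proteins, 3 of 83 (3.61%), and respiratory chain genes, 3 of 86 (3.49%). The zinc finger list was not pure. Its members with a site included Zfp36l2 and Zbtb8os, which are not C2H2 or KRAB genes.

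**Figure D4:**
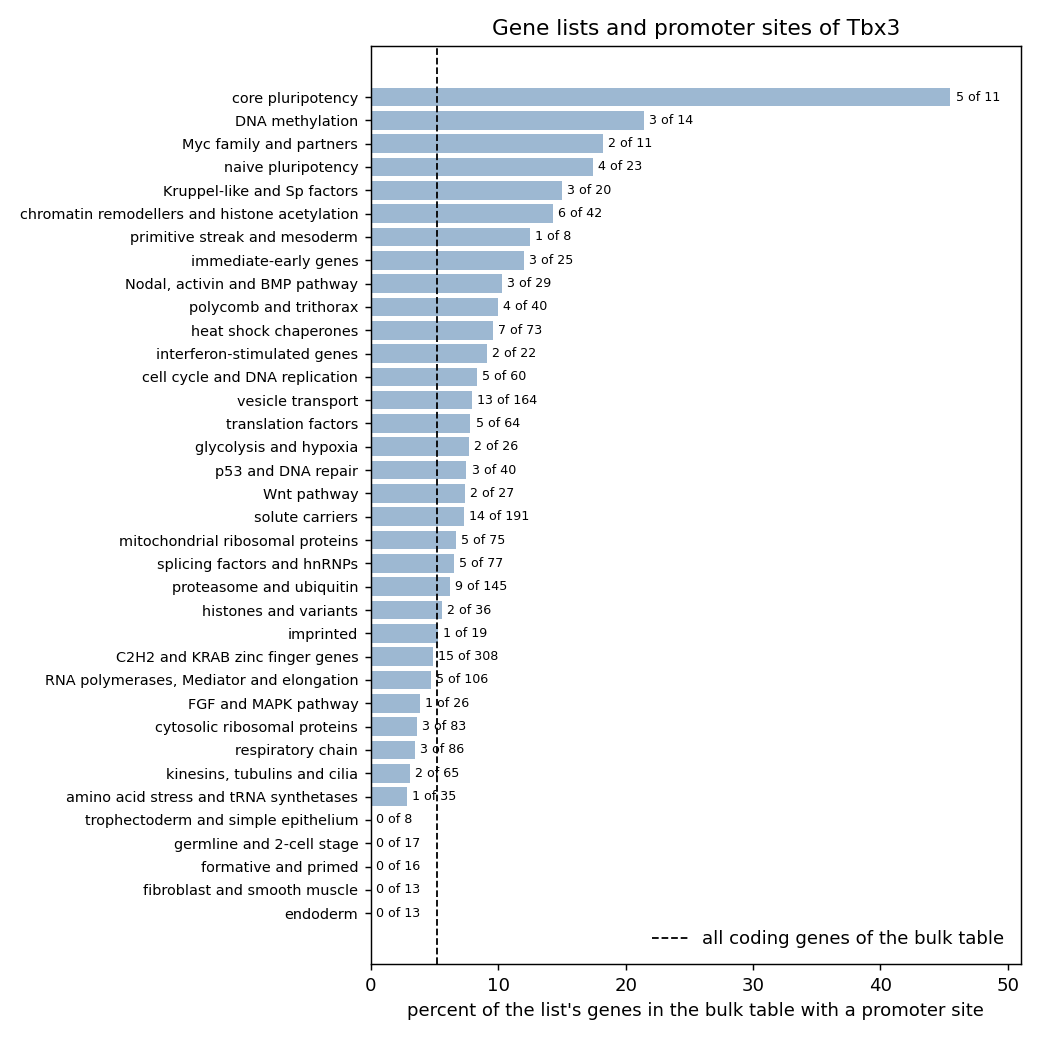
Percent of each list's genes in the bulk RNA table that had a Tbx3 promoter site (horizontal axis), for lists with at least 8 such genes, with the counts beside the bars. The dashed line is the 5.21% of all coding genes in that table, and core pluripotency (5 of 11) has the longest bar of the lists drawn.

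Genes with a promoter site were mostly expressed in stem cells. The bulk RNA table listed 578 of 653 (88.5%), against 11094 of 22225 coding gene symbols (49.9%). Their median level was above that of all listed genes in every library, 14.9 against 9.83 FPKM in +/+, 13.3 against 9.13 in +/N, 14.9 against 9.60 in N/N, 14.4 against 9.36 in shLuc and 16.5 against 10.6 in shTbx3. Among the highest were the chaperone Hsp90ab1, at 1536, 1409, 1557, 1550 and 1992 FPKM in that order of libraries, and the glycolytic enzyme gene Pkm2, at 735, 776, 856, 861 and 1139 FPKM. Trim28, Eif5a, Prmt1, Ranbp1 and Pabpc1, genes of repression, translation, arginine methylation, nuclear transport and messenger binding, were also among the first 10. Pou5f1 was at 660, 540, 532, 959 and 1034 FPKM, and Dppa5a at 623, 743, 770, 1364 and 1377 FPKM. The 2 hairpin libraries were above the 3 genotype libraries for both of these genes.

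The level of Tbx3 itself was lower in the edited libraries and the knockdown than in their own controls. It was 44.4 FPKM in +/+, 22.5 in +/N, 15.1 in N/N, 13.8 in shLuc and 5.09 in shTbx3. The N/N library thus kept 34.0% of the +/+ level of Tbx3 RNA, and shTbx3 kept 36.9% of shLuc. The shLuc level lay below that of N/N, although both hairpin lines were wild-type. Differences are given below as log2 of the ratio of FPKM + 1, for genes that reached 1 FPKM on either side of the comparison. The 6 stem cell markers were listed in all 5 libraries and summed to between 1091 and 2057 FPKM. In bulk libraries fewer cells of a type and less RNA per cell cannot be told apart.

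Few genes with a promoter site differed by 2-fold between N/N and +/+. Of 576 tested, 4 were at least 2-fold higher in N/N (0.694%, with 1.37% of all genes tested) and 4 at least 2-fold lower (0.694%, with 1.92% of all). Their median difference was 0.00 on the log2 scale, beside -0.03 for all 11478 genes tested. Among coding genes without a site 0.993% were higher and 1.44% lower, so the counts of genes with a site differed from that background by a few genes at most. Of the fibroblast markers 4 of 6 were listed, and they summed to 35.9 FPKM in the wild-type and 67.7 FPKM in the N/N library. Of the endoderm markers 5 of 6 were listed, and they summed to 34.2 and 5.90 FPKM. The part of such cells in these counts was not tested.

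The 4 genes past 2-fold higher were the tight junction genes Cldn3 and Cldn4, Sh2d5 and the polycomb-related Sfmbt2. Cldn3 went from 11.9 FPKM in the +/+ library to 29.8 FPKM in the N/N library, a difference of 1.26, and Cldn4 was at 106 and 213, a difference of 1.00. Sh2d5 was at 2.19 and 6.11 and Sfmbt2 at 6.29 and 14.4. Tfrc, the transferrin receptor gene, stood just under the fold limit at 40.9 and 82.1 FPKM (0.99). The sites of these 5 genes scored from 50 to 127.

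The 4 genes past 2-fold lower were Tbx3 and 3 genes of the antiviral response. Oas1g, an oligoadenylate synthetase gene, had 5.26 FPKM in the +/+ library and 1.25 FPKM in the N/N library, a difference of -1.48. The RNA helicase genes Ddx60 and Ddx58, the latter encoding the sensor RIG-I, were at 7.07 and 2.86 and at 20.7 and 9.78 FPKM, differences of -1.06 and -1.01. Their sites scored from 53 to 69.1 and were centred 890 bp or more from the gene start.

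The heterozygous library gave the same 3 antiviral genes. Against +/+, 1 of 576 genes with a site was at least 2-fold higher in +/N (0.174%, with 0.698% of all genes) and 3 were lower (0.521%, with 1.21% of all). Coding genes without a site gave 0.444% higher and 0.714% lower. The lower genes were Oas1g at 0.977 FPKM, Ddx60 at 2.5 and Ddx58 at 8.53, and the higher gene was Thbs2, a matricellular protein gene, at 5.03 against 1.84 FPKM. This comparison and that of N/N use the same +/+ library, so the repeat is not independent. The median difference was -0.10 both for the genes with a site and for all 11459 genes tested.

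Between N/N and +/N, 0 of 575 genes with a site passed 2-fold in either direction, with 0.317% of all genes higher and 0.308% lower. Coding genes without a site were also nearly all within the fold limit, 7 higher (0.0682%) and 2 lower (0.0195%) of 10270. The largest differences were Cdkn1c, an imprinted inhibitor of the cell cycle, at 13.3 FPKM in +/N and 6.98 in N/N (-0.84), and Arrdc1, at 11.8 and 18 (0.58). The median difference was 0.09, beside 0.07 for all 11362 genes.

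The knockdown gave more differences, and how far they leaned to higher values depended on the scaling. Of 573 genes with a site 15 were at least 2-fold higher in shTbx3 than in shLuc (2.62%, with 2.81% of all genes tested) and 1, Tbx3, was at least 2-fold lower (0.175%, with 0.987% of all). The share of higher genes was thus near the background. The median difference was 0.14, the same as for all 11342 genes, so part of the excess of higher genes went with a shift of the whole library. When the libraries were scaled to a common median, 10 genes with a site were higher (1.75%, with 1.93% of all) and 6 lower (1.05%, with 1.51% of all).

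The gene with the largest difference was T. It was at 0.605 FPKM in shLuc and 35.5 in shTbx3, a difference of 4.51 on the log2 scale, and lay between 0.0658 and 0.438 FPKM in the 3 genotype libraries. Its site holds a Sox match and no T-box match. Summed primitive streak markers, T included, were at 2.33 FPKM in shLuc and 70.9 in shTbx3, and summed B cell and antigen presentation markers at 76.6 and 6.99. Of the 7 B cell and antigen presentation markers, 5 were listed in the bulk table. The part of other cells in the differences was not tested.

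The other 14 genes had smaller differences, led by 5 with roles in guidance, junctions, transcription, Wnt reception and the Notch pathway. Ntn1, which encodes the guidance cue netrin-1, was at 2.72 FPKM in shLuc and 21.9 in shTbx3, and Amotl2, a regulator of Yap and of cell junctions, at 9.58 and 52.3. Cited2, a coactivator partner, was at 13.5 and 45.6, Fzd2 at 3.10 and 10.5, and Dll3, a divergent Notch ligand, at 1.66 and 5.54. Ntn1 and Dll3 are 2 of the genes whose T-box core is printed above, and the Amotl2, Cited2 and Fzd2 sites held no match to the core or the shorter form.

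Genes with high scoring sites were also in that group, at a share near the background. Of genes whose site scored 100 or more, 5 of 136 were at least 2-fold higher in shTbx3 (3.68%, with 2.81% of all genes tested). In N/N against +/+, 0 of 139 such genes passed 2-fold in either direction (with 1.37% of all genes higher and 1.92% lower). Mycn was at 116, 114, 107, 71.1 and 156 FPKM in +/+, +/N, N/N, shLuc and shTbx3, so it was 2.18-fold higher in shTbx3 than in shLuc but nearly level over the 3 genotypes. Shf was at 5.97, 5.35, 5.61, 3.16 and 9.0 FPKM. The remaining genes past 2-fold were Hist1h4k, Cdkn1c, Nck2, Myh9, Zfp428, Izumo4 and Tssk6, with fold values between 2.02 and 2.40.

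Pluripotency genes with a site lay on both sides. Tdgf1 was at 182, 181, 173, 215 and 107 FPKM in the same order, a difference of -1.0 in the knockdown that stayed just short of the 2-fold limit before rounding. Fbxo15 was at 92.4, 88.9, 91.3, 149 and 80.8 FPKM (-0.87 in the knockdown). Fgf4 was at 87.2, 88.8, 86.2, 95.5 and 59.8 FPKM. Nanog was at 71.6, 70.4 and 59.9 FPKM in the genotypes and at 230 and 280 FPKM in the hairpin libraries, a larger gap between the sets of libraries than within either. The polycomb genes Phc1 (187, 183, 177, 126 and 138 FPKM) and Jarid2 (79.2, 65.3, 69.8, 54.7 and 73.5 FPKM) stayed within 1.5-fold inside each comparison.

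Few genes with a site shared a direction in N/N and in the knockdown. Of the 571 tested in both comparisons, which share no library, 5 were at least 1.5-fold higher in both, namely Cldn3, Cldn4, Inadl, Sfmbt2 and Slc43a1 (0.876%, with 1.18% of all 11182 genes). Tbx3 was the 1 gene lower in both (0.175%, with 0.546% of all). Opposite directions at that fold were found for 4 genes higher in N/N and lower in shTbx3 (0.701%, with 0.402% of all) and for 3 the other way round (0.525%, with 1.17% of all). Across the 571 genes, which are not independent replicates, Pearson's r was -0.128 and Spearman's rho -0.185, and across all 11182 genes they were -0.009 and -0.079.

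**Figure D5:**
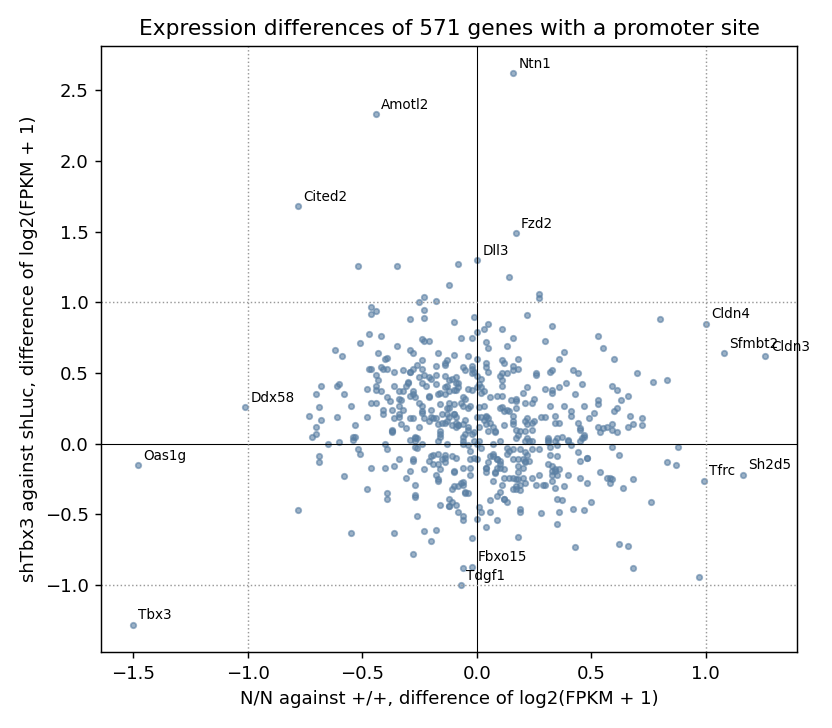
Differences of log2(FPKM + 1) for the 571 genes with a promoter site that were tested in both comparisons, N/N against +/+ on the horizontal axis and shTbx3 against shLuc on the vertical axis, 1 point per gene, with dotted lines at 2-fold. Tbx3 stands alone at the lower left, Ntn1, Amotl2 and Cited2 at the top, and T is not drawn because it was below 1 FPKM in both genotype libraries.

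In single cells the genes with a site were found more widely than other coding genes. The table held 639 of the 653 symbols (97.9%). The median gene with a site was at 1 FPKM or more in 11.1% of the 45 cells, beside 0% for coding genes without a site. Much of this gap went with level: among genes at 1 to 5, 5 to 20, 20 to 100 and 100 FPKM or more in the pool, the medians were 2.22%, 8.89%, 22.2% and 75.6% with a site and 2.22%, 6.67%, 22.2% and 71.1% without. The cells came from 1 culture and count as 1 sample, and the number of genes at 1 FPKM or more per cell ran from 1642 to 3295. Genes with a site numbered 106 to 216 per cell (median 152) and followed the number of all genes closely (r = 0.970 over 45 cells).

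Of the 639 genes, 18 were at 1 FPKM or more in all 45 cells (2.82%, with 0.899% of coding genes without a site) and 110 in none (17.2%, with 52.2%). Hsp90ab1, Dppa5a, Eif5a, Pkm2, Npm1 and Ranbp1 were found in all 45 (100%, 95% interval 92.1 to 100%, by the exact Clopper-Pearson method and for counting error only). Gpx1, the antioxidant glutathione peroxidase gene, and Jarid2 were also in that group. Among the pluripotency genes, Tdgf1 was found in 42 of 45 cells (93.3%, 81.7 to 98.6%) and Trim28 in 41 (91.1%, 78.8 to 97.5%). Fgf4 was found in 22 (48.9%, 33.7 to 64.2%), Nanog in 12 (26.7%, 14.6 to 41.9%) and Prdm14 in 6 (13.3%, 5.05 to 26.8%). Pou5f1 was found in 11 cells (24.4%, 12.9 to 39.5%) although the pool held it at 1370 FPKM, so a cell at 0 in this table does not show that the gene was silent there.

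Tbx3 was found in 13 of 45 cells (28.9%, 16.4 to 44.3%), with a highest value of 117 FPKM. Mycn was found in 28 cells (62.2%, 46.5 to 76.2%) and Phc1 in 24 (53.3%, 37.9 to 68.3%). Lrig1, Shf and T were found in 0 of 45 cells, which allows a share of cells with a detected level of up to 7.87% and sets no limit on expression. Their levels in the pool were 3.85, 7.49 and 0.469 FPKM.

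The genes with the widest spread among cells were not the pluripotency factors. Among those at 5 FPKM or more in the pool, the SD of log2(FPKM + 1) was largest for Upp1, a uridine phosphorylase gene, at 3.96, Psma1, a proteasome subunit gene, at 3.95, Bcap31 at 3.94, Spp1, which encodes osteopontin, at 3.89, 1810027O10Rik at 3.85 and Znrd1 at 3.81. Upp1 ran from 0 to 3922 FPKM with a median of 547. Spp1 ran from 0 to 2329 with a median of 124.

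Correlations with Tbx3 from cell to cell covered much the same range for genes with a site as for all genes. Over the 199 of them found in at least 25% of cells, Spearman's rho with Tbx3 had a median of 0.06 and ran from -0.35 to 0.44. Over all 3061 genes so measured the median was 0.05 and the range -0.43 to 0.52. The highest were Ccnd3 (0.44) and Stmn2 (0.43) and among the lowest were Eif1 and Tomm20 (each -0.35), named after their values were seen. All of these values share the depth of the same 45 cells.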

How the data were processed

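The series held 53 samples, and the Tbx3 precipitation, 5 bulk RNA libraries, 45 single cells and 1 pool were used. Reads of the precipitation were aligned to mm9 with Bowtie 1.0, and HOMER is also named, per the submitters' processing notes. Each site carries a score made by the authors before deposit. The site names follow the pattern of MACS, and which tool made the score and whether the BirA-only precipitation served as its control are not given in the sources used here. Bulk values are FPKM made by the authors with TopHat, Cufflinks and Cuffdiff, and per the submitters' processing notes the authors made the single-cell FPKM with Cuffnorm after TopHat. The 2 kinds of table were scaled separately by the authors and are not set beside each other as levels. Read numbers per library are unknown, so no counting error is given for bulk values. The bulk table has 11647 rows, 18 of which carry a number in place of a name.

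From these files, sites were placed against the outermost start of each of 22367 coding genes on the chromosomes of NCBIM37, the same assembly as mm9, with GENCODE vM1. The nearest start led where there were several. Windows of 300 bp around site centres and gene starts were searched for 15 sequences on both strands. Printed sequences were read from the NCBIM37 genome. Genes were matched to the RNA tables by symbol. Differences are log2((a + 1)/(b + 1)), with a pseudocount of 1 FPKM, where either library reached 1 FPKM, and at least 2-fold on that scale was counted. With 1 library per group no test across genes was made. Alternatives were other pseudocounts, folds, windows, distances, score minimums and a median set to 0, described at the end.

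The members and all 39 gene lists were chosen with earlier results of these data known, and no list is independent support. Named sites were the 10 highest scores, the 5 widest, the 5 on either side of the distance limit and those of pluripotency, streak, T-box and Myc genes. Named genes were the 10 highest in +/+, the largest differences in each direction at 5 FPKM or more, up to 4 leading members per list, and the most widely found and most variable genes in cells; genes past 2-fold and others of known role were added after their values were seen. The scripts, run with Python 3.11.15, numpy 2.4.6, pandas 2.3.3, scipy 1.17.1 and pysam 0.24.0, were tested on simulated data with planted sites and changes.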

Additional observations from a re-analysis of the deposited data

How the results depend on the processing

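Of 146 values recomputed under alternatives, 68 of the main values kept within the allowed range and 36 moved. With sites of score 100 or more the median score was 137, and the T-box core was in 7.86% of 300 bp windows. Over all promoter sites the core was in 4.39% of 200 bp and 9.29% of 600 bp windows. Counts of genes with a site past the fold limit were small and moved with it. Brackets below give the share of genes with a site and then that of all genes tested. In N/N against +/+, the higher count of 4 became 10 with a pseudocount of 0.1 (1.74%, 2.28%) and 1 with 5 (0.174%, 0.558%). It became 39 at 1.5-fold (6.77%, 5.45%), 7 with the median set to 0 (1.22%, 1.48%) and 0 for sites of score 100 or more (0%, 1.37%). The lower count of 4 became 1 with a pseudocount of 5 (0.174%, 0.880%) and 23 at 1.5-fold (3.99%, 6.47%). It became 0 for the high scores (0%, 1.92%) and 1 within 500 bp (0.197%, 1.92%). In +/N against +/+, the higher count of 1 became 3 with a pseudocount of 0.1 (0.521%, 1.12%) and 0 with 5 (0%, 0.340%). It became 11 at 1.5-fold (1.91%, 2.44%), 2 with the median set to 0 (0.347%, 0.925%) and 0 within 500 bp (0%, 0.698%). The lower count of 3 became 0 with a pseudocount of 5 (0%, 0.698%) and 18 at 1.5-fold (3.12%, 4.91%). It became 0 for the high scores and 0 within 500 bp (each 0%, 1.21%). In N/N against +/N, 2 genes were lower at 1.5-fold (0.348%, 0.801%). In shTbx3 against shLuc, the higher count of 15 became 23 with a pseudocount of 0.1 (4.01%, 4.73%) and 6 with 5 (1.05%, 0.961%). It became 69 at 1.5-fold (12%, 12.7%), 5 for the high scores (3.68%, 2.81%) and 9 within 500 bp (1.77%, 2.81%). The lower count of 1 became 5 with a pseudocount of 0.1 (0.873%, 1.90%) and 0 with 5 (0%, 0.247%). It became 18 at 1.5-fold (3.14%, 3.73%), 6 with the median set to 0 (1.05%, 1.51%) and 0 for the high scores (0%, 0.987%). With the median set to 0 the median differences were 0.02 in +/N and -0.02 in shTbx3, the same as over all genes tested. The setting thus brought the median near 0 but not always to 0. The median share of cells was 26.7% at any value above 0 FPKM and 17.4% in cells with at least the median number of genes. Of the values for single sequences, 23 moved and 19 did not. The cause of each move was not tested, beyond the change in threshold, sites or cells that the setting itself makes. No paired analysis was possible because each group had 1 library. The depth of the bulk libraries is unknown and limits all low values.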

Other observations

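A count of all words of 7 letters, chosen after the data had been seen, gave further sequences that differed between promoter site windows and bulk-listed starts without a site. CGCACGC was in 17.6% of promoter site windows and 10.9% of those starts, GAGGTGC in 11.8% and 5.54%, and CACCTCC in 18.6% and 12.1%. Words holding the shorter T-box form were among the leading ones, AGGTGTC in 8.28% against 3.11% and ACACCTC in 8.95% against 3.83%. Words of CG repeats were lower, CGGCGGC in 17.6% against 26.9% and CCGCCGC in 21.8% against 31.1%. These are shares of 1 site list, chosen for their size among all words, and were not tested.

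Some other lists are given here beside the 2.94% of all coding genes that had a promoter site. Over coding genes in the bulk RNA table that share was 5.21%. The p53 and DNA repair list had 3 of 40 genes with one (7.5%), Gadd45g at a score of 140, Gadd45a at 59.6 and Msh6 at 50.8. Among the immediate-early genes Jund, Klf10 and Zfp36l2 had a site, 3 of 28 (10.7%). Among 353 solute carriers 15 had one (4.25%), led by Slc35f2 at 219 and Slc12a4 at 203. Among 79 histone genes 5 had one (6.33%), led by Hist1h2al at 317. Hist1h2an and Hist1h2bp were counted from a shared site at 86.7. Over bulk-listed genes the shares were 7.5% for p53 and DNA repair and 12% for immediate-early genes. They were 7.33% for solute carriers (14 of 191) and 5.56% for histone genes (2 of 36).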
